A study of Mus musculus with 6 samples.

Results

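The kinetochore, the spindle assembly checkpoint and the mitotic kinases were examined as 43 genes chosen by name, out of 26082 gene names in the deposited expression table. An entry under the current symbol was present for 42 of them, and the remaining gene, Ska3, stood under an older symbol. Every one of the 43 genes had a mean of at least 1 FPKM (fragments scaled to transcript length and library size) over the 6 samples, so the filter on low expression removed none. The lowest mean was that of Cenpi, at 4.44 FPKM. By function the set holds 11 genes of centromere chromatin and the inner kinetochore, 12 of the outer kinetochore, 6 of the spindle checkpoint, 4 of the chromosomal passenger complex, 7 mitotic kinases and cyclins, and 3 genes of anaphase onset.

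The data were RNA-Seq profiles of MLL-AF9 leukemia cells from the bone marrow of C57BL/6J mice, with 3 samples from mice given vehicle and 3 from mice given DS-5272, an oral inhibitor of the MDM2-p53 interaction, at 80 mg/kg. Cells were taken 24 h after dosing. Both groups carried the MLL-AF9 fusion, introduced with a retroviral vector into c-Kit+ bone marrow progenitors, so the controls were leukemia cells and not normal marrow. The leukemias had been passaged serially through recipient mice before the final transfer into non-irradiated recipients. The age of the animals, the gate that separated leukemia cells from other marrow cells for sequencing, and whether all recipients received the same passaged leukemia, were not given in the sources used here. The labels number the samples 1 to 3 in each group without saying that each came from a separate mouse, so p-values measure only the spread between these samples.

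The kinetochore is the protein assembly that joins each centromere to spindle microtubules. Its inner part, the constitutive centromere-associated network (CCAN), sits on nucleosomes that carry the histone variant CENP-A, and its outer part holds the microtubule-binding complexes. While any kinetochore lacks attachment, the spindle checkpoint holds back the anaphase-promoting complex, and cyclin B-CDK1 stays active. Most genes of this machinery are transcribed periodically and reach their highest level in G2 and M phase, so in bulk RNA their level follows the share of cells in those phases as well as the transcripts per cell. In bulk samples such as these, fewer cells of a kind and less RNA per cell cannot be told apart.

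Expression of the machinery was lower with DS-5272 in most of the genes examined. In the limma test over 11130 genes, 37 of the 43 genes were lower at an adjusted p under 0.05, 0 were higher and 6 did not pass, while 22.0% of all genes tested were lower and 24.2% were higher. The median log2 fold change of the 43 genes was −1.96, with quartiles of −2.33 and −1.36, beside a median of 0.04 and quartiles of −0.34 and 0.46 over all genes tested. Of the 37 lower genes, 20 had a log2 fold change of −2 or below, a size of fall that 0.979% of all genes tested reached. Fold changes were taken on log2(FPKM + 1), which understates the change of low genes. On that scale a gene with a low vehicle level cannot reach −2 even when its expression is lost. The lowest vehicle mean of the 43 genes was 5.88 FPKM, so the share over all genes includes genes that could not qualify. In 39 of the 43 genes every DS-5272 sample lay below every vehicle sample, which was the case for 29.7% of all genes tested. At an unadjusted p under 0.05 the number of higher genes was also 0. Adjusted p-values of the 37 genes from limma lay between 0.0044 and 0.019. The 6 genes that did not pass were Cenpo and Cenpt of the CCAN, Mis12, Zwint and Zw10 of the outer kinetochore, and Pttg1, which encodes securin. Without vehicle replicate 2 the count of lower genes was 31, beside 12.6% of all genes tested lower in that fit, and it was 34 or more without any other sample. After rescaling to a common total it was 39, where 32.0% of all genes tested were lower and 15.3% higher.

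**Figure D1:**
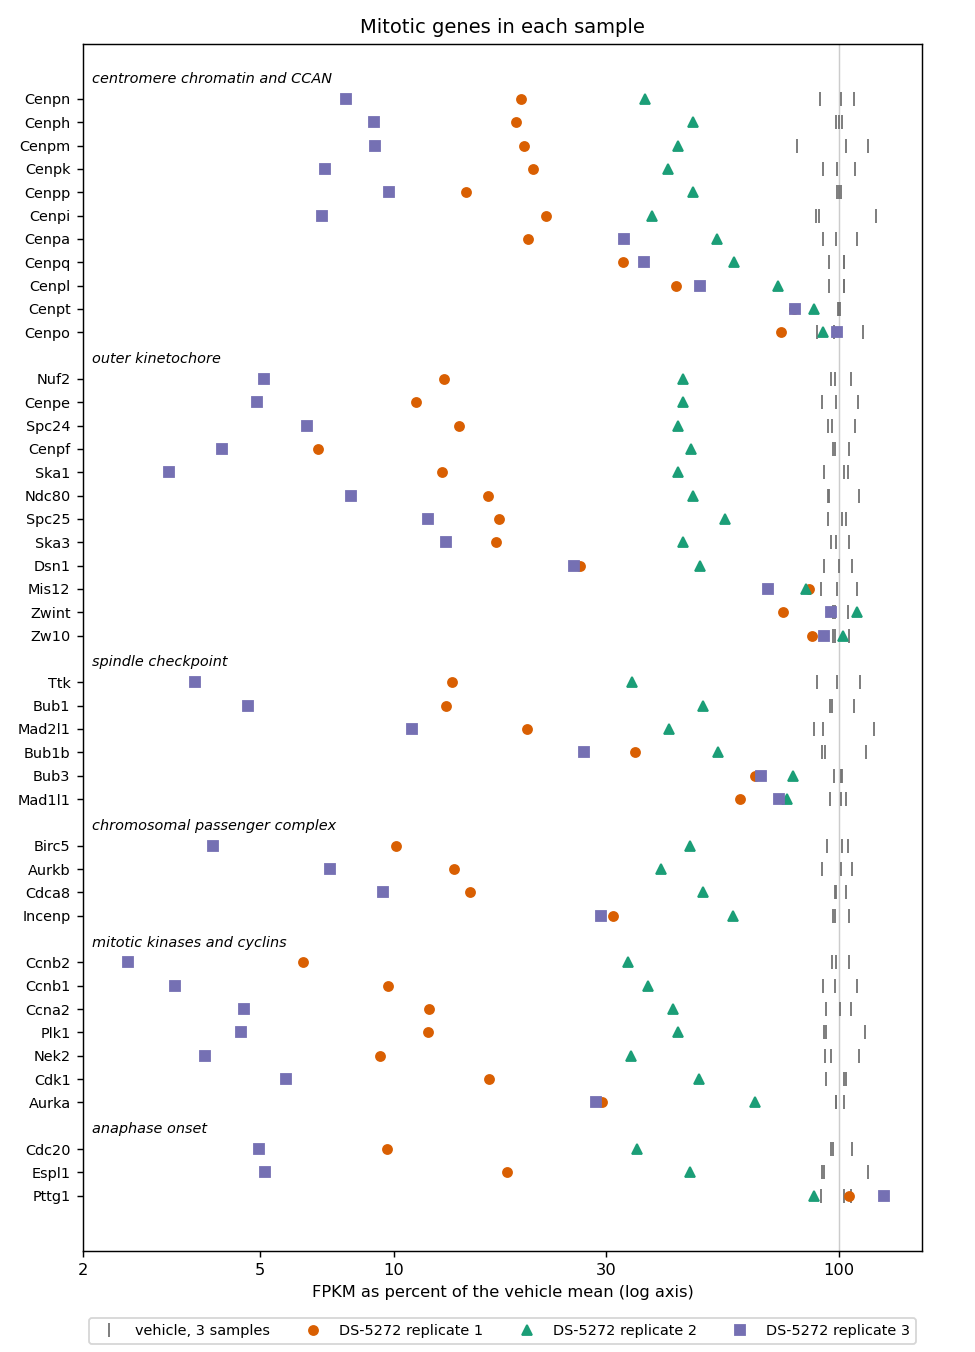
Each row is a gene, grouped by role, and the horizontal log axis gives FPKM as a percent of that gene's vehicle mean. Grey ticks are the 3 vehicle samples and coloured symbols the 3 DS-5272 samples. In all 37 lower genes the second DS-5272 sample (green triangles) lies nearest to vehicle, and in 32 of them the third (purple squares) lies farthest away.

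The mitotic kinases and cyclins showed the lowest median of the 6 role groups, at −2.62, and all 7 genes fell. Ccnb2 and Ccnb1 encode the B-type cyclins that activate CDK1 for entry into mitosis. Ccnb2 was at 77.2, 70.9 and 72.2 FPKM in the vehicle samples and at 4.57, 24.7 and 1.85 FPKM in the DS-5272 samples. Its mean was 7.09-fold lower, with a log2 fold change of −3.33 (SE 0.73, limma adjusted p = 0.012), and its fall ranked 4 among the 11130 genes. Ccnb1 was at 39.3, 35.1 and 33.0 FPKM with vehicle and at 3.47, 13.3 and 1.15 FPKM with DS-5272. The log2 fold change of Ccnb1 was −2.83 (SE 0.62, limma adjusted p = 0.012). For both cyclins the groups did not overlap, and the highest DS-5272 sample was the second replicate. Ccna2, the A-type cyclin of S phase and early mitosis, was at 89.2, 84.2 and 78.4 FPKM with vehicle and at 10.1, 35.5 and 3.86 FPKM with DS-5272. Its log2 fold change was −2.76 (SE 0.66, limma adjusted p = 0.015).

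The kinases themselves fell by unequal amounts. Plk1, which acts at centrosomes, kinetochores and the midzone, was at 46.8, 38.3 and 38.0 FPKM with vehicle and at 4.90, 17.8 and 1.86 FPKM with DS-5272, a log2 fold change of −2.62 (SE 0.62, limma adjusted p = 0.015). Nek2, a kinase of centrosome separation, was at 20.4, 17.6 and 17.1 FPKM with vehicle and at 1.71, 6.24 and 0.691 FPKM with DS-5272, a log2 fold change of −2.59 (SE 0.49, limma adjusted p = 0.0076). Cdk1, the catalytic partner of these cyclins, was at 25.3, 25.0 and 22.8 FPKM with vehicle and at 3.98, 11.8 and 1.39 FPKM with DS-5272, a log2 fold change of −2.25 (SE 0.55, limma adjusted p = 0.016). Aurka, the aurora kinase of the spindle poles, moved least in this group. It was at 49.3, 47.3 and 47.2 FPKM with vehicle and at 14.1, 31.0 and 13.6 FPKM with DS-5272, a log2 fold change of −1.35 (SE 0.30, limma adjusted p = 0.012). No sample of Aurka with DS-5272 reached the vehicle range, but its lowest kept 28.4% of the vehicle mean, whereas the lowest sample of Ccnb2 kept 2.52%.

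All 4 genes of the chromosomal passenger complex, which corrects faulty attachments and moves to the midzone at anaphase, fell, with a median log2 fold change of −2.36. Birc5, encoding survivin, was at 84.4, 81.6 and 75.5 FPKM with vehicle and at 8.14, 37.2 and 3.16 FPKM with DS-5272. Its log2 fold change was −2.85 (SE 0.73, limma adjusted p = 0.019). The call for Birc5 was lost without vehicle replicate 1, 2 or 3, with limma adjusted p-values of 0.0545, 0.0586 and 0.0501. Aurkb, the kinase of the complex, was at 42.1, 39.9 and 36.2 FPKM with vehicle and at 5.38, 15.6 and 2.83 FPKM with DS-5272, a log2 fold change of −2.44 (SE 0.49, limma adjusted p = 0.0089). Cdca8, encoding borealin, fell by 2.27 on the log2 scale (SE 0.52, limma adjusted p = 0.013). Incenp, the scaffold that joins the kinase to the other subunits, moved least, from 60.0, 55.8 and 55.2 FPKM to 17.7, 33.0 and 16.6 FPKM, a log2 fold change of −1.37 (SE 0.25, limma adjusted p = 0.0067).

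At anaphase onset the genes parted. Cdc20, the activator of the anaphase-promoting complex and the target of the checkpoint, was at 48.1, 43.2 and 43.7 FPKM with vehicle and at 4.34, 15.8 and 2.24 FPKM with DS-5272. Its log2 fold change was −2.79 (SE 0.55, limma adjusted p = 0.0085). Espl1, encoding the cohesin protease separase, was at 10.5, 8.37 and 8.30 FPKM with vehicle and at 1.62, 4.20 and 0.465 FPKM with DS-5272, a log2 fold change of −1.88 (SE 0.43, limma adjusted p = 0.013). Pttg1, whose product securin holds separase inactive until anaphase, was at 20.8, 20.0 and 17.7 FPKM with vehicle and at 20.6, 17.1 and 24.6 FPKM with DS-5272. Its groups overlapped, with the highest sample in the DS-5272 group, and its log2 fold change was 0.07 (95% interval −0.27 to 0.42, limma adjusted p = 0.693). The sign for Pttg1 turned to −0.18 after rescaling to a common total, without a call.

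Sequence just before the start of 5 genes is shown, so that the 4 genes with the largest falls can be read beside Zw10, one of the pair that changed least. Each is the gene's own strand, 5′ to 3′, of GRCm38.p6 as RefSeq gives the start, and bases that GENCODE M21 already counts as transcribed were left off. Capitals mark matches on either strand to TTTGAA or TTTAAA (the core of the cell cycle homology region read by MuvB complexes), CCAAT (read by NF-Y), and TTCCCGC or TTGGCGC (read by E2F). The windows are chr9:70421555-70421804 (minus strand), chr11:117848987-117849236 (plus), chr13:100786571-100786736 (minus), chr4:118437353-118437593 (minus) and chr9:49055331-49055580 (plus).
Ccnb2: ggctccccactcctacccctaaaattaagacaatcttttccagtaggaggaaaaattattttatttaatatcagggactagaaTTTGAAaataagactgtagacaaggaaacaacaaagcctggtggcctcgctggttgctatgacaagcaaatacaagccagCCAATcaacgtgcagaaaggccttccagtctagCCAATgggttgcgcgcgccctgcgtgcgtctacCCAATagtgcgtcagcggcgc
Birc5: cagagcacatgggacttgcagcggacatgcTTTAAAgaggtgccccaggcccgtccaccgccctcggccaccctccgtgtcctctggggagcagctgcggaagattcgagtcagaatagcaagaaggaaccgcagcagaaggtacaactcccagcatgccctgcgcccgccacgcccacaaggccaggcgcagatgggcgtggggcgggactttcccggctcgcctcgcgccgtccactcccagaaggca
Ccnb1: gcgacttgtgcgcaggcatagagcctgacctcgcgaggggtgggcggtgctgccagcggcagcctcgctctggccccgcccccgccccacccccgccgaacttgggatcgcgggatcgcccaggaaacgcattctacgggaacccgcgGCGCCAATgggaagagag
Cdc20: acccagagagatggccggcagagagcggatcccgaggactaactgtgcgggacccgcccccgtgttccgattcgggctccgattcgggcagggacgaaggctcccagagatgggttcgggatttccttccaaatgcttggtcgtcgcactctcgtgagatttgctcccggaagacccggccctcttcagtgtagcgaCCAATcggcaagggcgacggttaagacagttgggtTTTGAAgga
Zw10: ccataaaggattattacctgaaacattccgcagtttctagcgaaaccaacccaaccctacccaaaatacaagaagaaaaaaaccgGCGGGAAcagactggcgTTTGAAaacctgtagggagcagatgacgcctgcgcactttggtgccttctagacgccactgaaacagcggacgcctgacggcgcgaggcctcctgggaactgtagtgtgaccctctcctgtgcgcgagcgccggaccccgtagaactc
Ccnb2 holds CCAAT at −87, −54 and −21 from its start with TTTGAA at −167, and Cdc20 holds CCAAT at −53 with TTTGAA at −18. Ccnb1 holds CCAAT at −99, where the reverse match to TTGGCGC overlaps it, and Birc5 holds TTTAAA at −220. In bases not printed, Ccnb1 also holds CCAAT at −67 and TTTAAA at −42, Cdc20 holds CCAAT at −8 and Ccnb2 holds TTTGAA at 5. Zw10 holds TTTGAA at −148 and a reverse match to TTCCCGC at −165, so such letters were also present before a gene that did not pass the test. The Pttg1 window lies inside its GENCODE transcript and is not shown, and it held none of the motifs.

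A RefSeq window of 300 bases, from 250 before to 50 after the start, was present for 38 of the 43 genes. At least 1 match to CCAAT was found in 26 of the 38 windows (68.4%), compared with 41.1% of the windows of 27025 genes. Windows with 2 or more matches to CCAAT numbered 19 (50.0%), compared with 13.3% of all. TTTGAA was found in 18 (47.4%), compared with 20.2% of all, and TTTAAA in 10 (26.3%), compared with 14.9%. The E2F motif TTCCCGC was found in 8 (21.1%), compared with 5.29% of all, and TTGGCGC in 3 (7.89%), compared with 2.85%. Among the 32 lower genes with a window, 24 held CCAAT and 17 held TTTGAA. Of the same 32 genes, 8 held TTTAAA. The E2F motif TTCCCGC was held by 6 of them. Of the 6 genes that did not pass the test, Mis12 and Zwint held CCAAT, and Zw10 held TTTGAA. Among those same genes Cenpt and Zwint held TTTAAA, while Cenpo and Zw10 held the E2F motif TTCCCGC. The 27025 genes were not limited to the 11130 that passed the expression filter, as all 43 genes did, so the shares compare unlike sets. These matches are descriptions of the letters in the windows and were not tested, and binding was not measured.

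In the spindle checkpoint all 6 genes fell, but by sizes that divided the group. Ttk, the kinase that starts checkpoint signalling, was at 18.2, 16.2 and 14.6 FPKM with vehicle and at 2.21, 5.59 and 0.584 FPKM with DS-5272, a log2 fold change of −2.42 (SE 0.47, limma adjusted p = 0.0083). Bub1, a kinase recruited by Ttk activity, was at 15.6, 13.9 and 13.7 FPKM with vehicle and at 1.88, 7.11 and 0.675 FPKM with DS-5272, a log2 fold change of −2.18 (SE 0.52, limma adjusted p = 0.016). Mad2l1, whose product captures Cdc20, was at 39.4, 30.2 and 28.8 FPKM with vehicle and at 6.53, 13.6 and 3.60 FPKM with DS-5272, a log2 fold change of −2.07 (SE 0.39, limma adjusted p = 0.0078). In the third DS-5272 sample these genes kept from 3.58% (Ttk) to 11.0% (Mad2l1) of the vehicle mean. Bub1b, encoding BubR1 of the mitotic checkpoint complex, was intermediate, from 42.0, 33.5 and 34.0 FPKM to 12.7, 19.5 and 9.76 FPKM, a log2 fold change of −1.37 (SE 0.24, limma adjusted p = 0.0061). The remaining members moved far less.

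Bub3, the partner of both BUB kinase-family proteins, had the highest vehicle level of the 43 genes. It was at 131, 136 and 136 FPKM with vehicle and at 86.8, 106 and 89.6 FPKM with DS-5272, a log2 fold change of −0.51 (SE 0.11, limma adjusted p = 0.010). Mad1l1, the kinetochore receptor for Mad2, was at 34.7, 37.9 and 36.7 FPKM with vehicle and at 21.9, 27.8 and 26.8 FPKM with DS-5272, a log2 fold change of −0.51 (SE 0.12, limma adjusted p = 0.014). For both genes every DS-5272 sample was below every vehicle sample, although no sample of Bub3 fell under 64.6% of its vehicle mean. The call for Mad1l1 was lost without vehicle replicate 2 or 3, at limma adjusted p-values of 0.0594 and 0.0538.

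**Figure D2:**
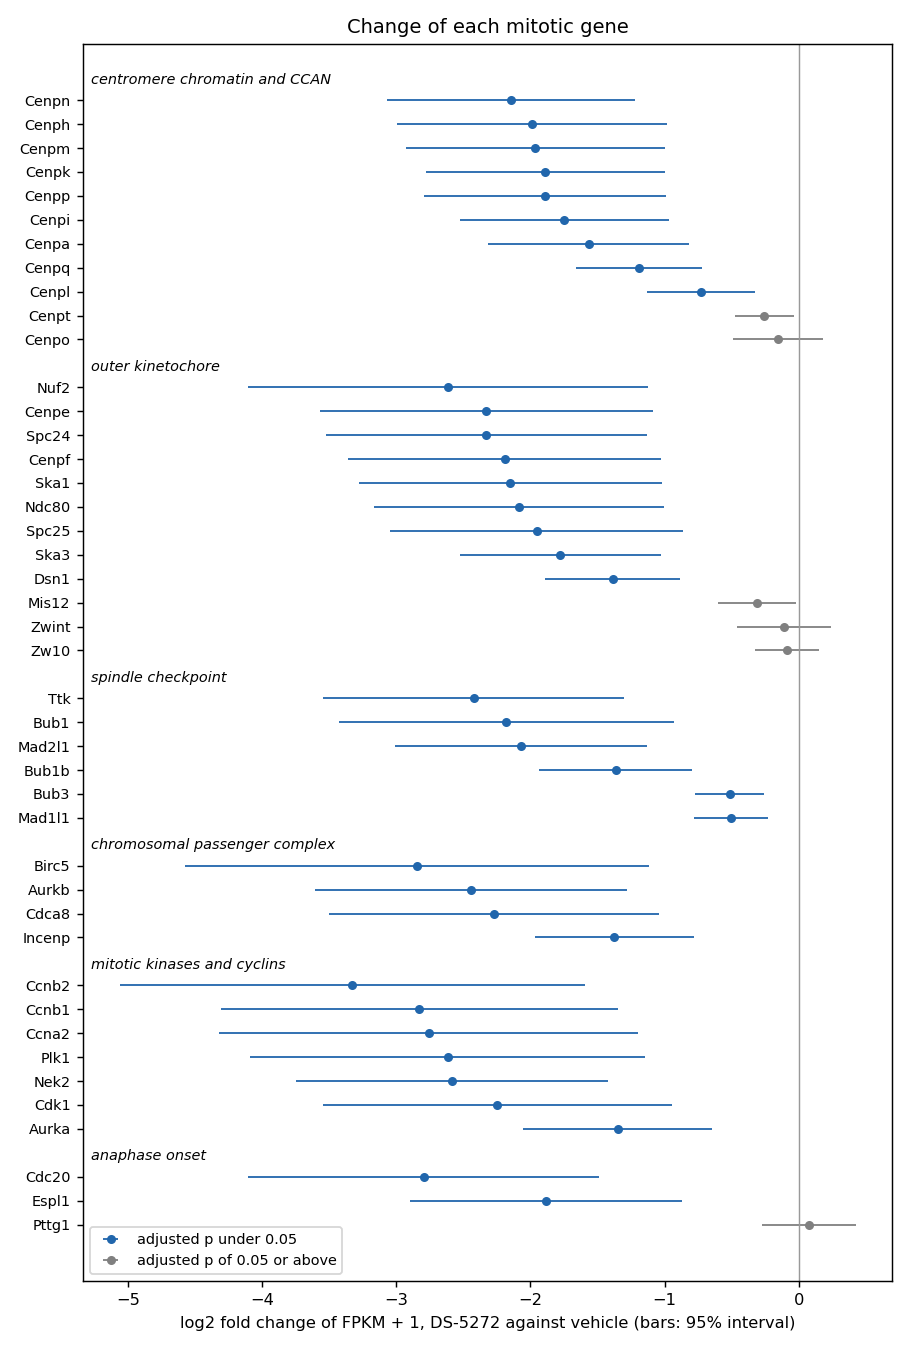
Log2 fold change of FPKM + 1 for each of the 43 genes, DS-5272 against vehicle (3 samples each), with bars for the 95% interval from limma. Blue genes passed an adjusted p of 0.05 and grey genes did not, and the points run from −3.33 for Ccnb2 to 0.07 for Pttg1.

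The outer kinetochore had 9 lower genes of 12 and a median log2 fold change of −2.02. The NDC80 complex, which grips the microtubule, fell in all 4 subunits. Nuf2 was at 63.6, 57.4 and 58.7 FPKM with vehicle and at 7.75, 26.7 and 3.06 FPKM with DS-5272, a log2 fold change of −2.61 (SE 0.63, limma adjusted p = 0.016). Spc24 fell by 2.33 (SE 0.50, limma adjusted p = 0.011), Ndc80 by 2.08 (SE 0.45, adjusted p = 0.012) and Spc25 by 1.95 (SE 0.46, adjusted p = 0.015) on the log2 scale. The third DS-5272 sample was the lowest for each of the 4 subunits, at 1.47 FPKM for Ndc80, 1.61 FPKM for Spc24 and 3.27 FPKM for Spc25.

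Cenpe, the kinetochore kinesin that carries chromosomes to the spindle equator, was at 18.9, 15.7 and 16.9 FPKM with vehicle and at 1.93, 7.68 and 0.847 FPKM with DS-5272, a log2 fold change of −2.33 (SE 0.52, limma adjusted p = 0.012). Cenpf, a large coiled-coil protein of the outer kinetochore, was at 9.32, 10.1 and 9.44 FPKM with vehicle and at 0.650, 4.49 and 0.396 FPKM with DS-5272, a log2 fold change of −2.19 (SE 0.49, limma adjusted p = 0.013). The SKA complex stabilises attached microtubules. Its subunit Ska1 was at 11.0, 10.8 and 9.72 FPKM with vehicle and at 1.35, 4.56 and 0.328 FPKM with DS-5272, a log2 fold change of −2.15 (SE 0.47, limma adjusted p = 0.012). The lowest of these values rests on about 20.2 fragments, estimated from the library size and transcript length, the fewest of any gene in the set. Ska3 fell by 1.78 on the log2 scale (SE 0.31, limma adjusted p = 0.0063).

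The MIS12 complex bridges the inner and outer kinetochore, and its examined subunits differed. Dsn1 was at 11.0, 9.51 and 10.3 FPKM with vehicle and at 2.68, 5.01 and 2.60 FPKM with DS-5272, a log2 fold change of −1.39 (SE 0.21, limma adjusted p = 0.0044). Mis12 was at 20.2, 18.2 and 16.8 FPKM with vehicle and at 15.8, 15.6 and 12.7 FPKM with DS-5272. Its groups did not overlap, and its log2 fold change was −0.31 (95% interval −0.60 to −0.02, limma adjusted p = 0.076). With the replicate number as a block the limma adjusted p for Mis12 was 0.040, which made 38 lower genes of 43, beside 24.9% of all genes tested lower and 30.3% higher in that fit. Zwint and Zw10 act in recruiting dynein and checkpoint proteins to kinetochores. Zwint was at 45.3, 45.9 and 49.1 FPKM with vehicle and at 35.0, 51.4 and 44.8 FPKM with DS-5272, a log2 fold change of −0.11 (95% interval −0.46 to 0.24, limma adjusted p = 0.560). Zw10 was at 17.4, 16.0 and 16.1 FPKM with vehicle and at 14.4, 16.8 and 15.3 FPKM with DS-5272, a log2 fold change of −0.09 (95% interval −0.33 to 0.15, limma adjusted p = 0.479). The groups overlapped for Zwint and Zw10, and Zwint passed the threshold after rescaling to a common total (log2 fold change −0.37, limma adjusted p = 0.0475).

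Centromere chromatin and the CCAN had 9 lower genes of 11, with a median log2 fold change of −1.75. Cenpa, the histone H3 variant that marks the centromere, was at 64.3, 76.6 and 68.9 FPKM with vehicle and at 14.0, 37.1 and 22.9 FPKM with DS-5272, a log2 fold change of −1.56 (SE 0.31, limma adjusted p = 0.0091). Cenpn, which recognises the CENP-A nucleosome, was at 20.7, 19.2 and 17.3 FPKM with vehicle and at 3.68, 6.98 and 1.48 FPKM with DS-5272, a log2 fold change of −2.14 (SE 0.39, limma adjusted p = 0.0068). Its binding partner in the CCAN, Cenpl, moved less. Cenpl was at 6.19, 5.73 and 6.20 FPKM with vehicle and at 2.59, 4.41 and 2.93 FPKM with DS-5272, a log2 fold change of −0.73 (SE 0.17, limma adjusted p = 0.014). The Cenpl call was lost without vehicle replicate 3, at a limma adjusted p of 0.0525.

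Subunits of the CENP-H/I/K/M module fell by similar sizes. The log2 fold changes were −1.99 for Cenph (SE 0.42, limma adjusted p = 0.011), −1.96 for Cenpm (SE 0.41, adjusted p = 0.0098), −1.89 for Cenpk (SE 0.37, adjusted p = 0.0086) and −1.75 for Cenpi (SE 0.33, adjusted p = 0.0075). The lowest sample of each was the third with DS-5272, from 0.499 FPKM for Cenpi to 1.59 FPKM for Cenph. Cenph and Ccnb1 are neighbours on chromosome 13 in GRCm38, at 100759674 to 100775899 and at 100778650 to 100786570.

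The CENP-O/P/Q module was uneven. Cenpp was at 10.8, 10.6 and 10.7 FPKM with vehicle and at 1.56, 5.04 and 1.04 FPKM with DS-5272, a log2 fold change of −1.89 (SE 0.38, limma adjusted p = 0.0090). Cenpq was at 20.1, 21.7 and 21.7 FPKM with vehicle and at 6.91, 12.3 and 7.70 FPKM with DS-5272, a log2 fold change of −1.19 (SE 0.20, limma adjusted p = 0.0054). Cenpo was at 6.65, 5.25 and 5.72 FPKM with vehicle and at 4.34, 5.40 and 5.83 FPKM with DS-5272, a log2 fold change of −0.15 (95% interval −0.49 to 0.18, limma adjusted p = 0.390). Cenpo groups overlapped, with only the first DS-5272 sample below the vehicle range. Cenpt, the CCAN protein that reaches out to the NDC80 complex, was at 10.8, 10.9 and 10.8 FPKM with vehicle and at 8.60, 9.51 and 8.62 FPKM with DS-5272. Its groups did not overlap, and its log2 fold change was −0.26 (95% interval −0.48 to −0.04, limma adjusted p = 0.058). Cenpt passed the threshold under each of 4 other scalings, with limma adjusted p-values of 0.0239 to 0.0431.

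In GENCODE M21, exons of 11 of the 43 genes overlap a gene on the opposite strand, among them Cenpo (with Adcy3 and Ptrhd1), Cenpt (with Tsnaxip1), Mis12 (with Derl2), Ccna2 (with Exosc9) and Cdc20 (with Elovl1). The libraries were strand-specific, but the sources used here do not state whether the strand was used in computing FPKM. Reads of such a gene and of its partner may therefore not have been told apart, which makes the values of these 11 genes less certain. Of the 6 genes that did not pass the test, 3 are among them.

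The 3 DS-5272 samples differed from each other in one recurring order. The median of the 43 genes was 17.9% of the vehicle mean in the first sample, 46.9% in the second and 9.01% in the third. Over all genes tested the same medians were 99.3%, 99.2% and 109%, and over all 2451 lower genes 59.9%, 64.7% and 49.8%. The second DS-5272 sample was the highest of its group in 40 of the 43 genes and in all 37 lower genes, compared with 66.3% of all lower genes. The third was the lowest in 33 genes, of which 32 were lower genes, compared with 69.3% of all lower genes. Genes of one library share that library, so these counts describe 3 samples and are no replicates of the order.

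The exceptions to this order were Cenpa, Cenpl, Cenpq, Bub3 and Mad1l1 among the lower genes, in which the first DS-5272 sample was the lowest. Over the 43 genes the median ratio of the highest to the lowest sample was 1.13 within vehicle and 5.22 within DS-5272, and it was 1.18 and 1.36 over all genes tested. In all 43 genes this ratio was smaller within vehicle, as it was in 76.9% of all genes tested. In the third sample 25 of the 37 lower genes kept less than 10% of the vehicle mean. Over all 2451 lower genes the median kept in that sample was 49.8%. The median log2 fold change of the 43 genes was −2.48 without the second DS-5272 sample and −1.57 without the third.

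The p53 targets that report on DS-5272 did not follow the same order. Cdkn1a, encoding the CDK inhibitor p21, was at 14.8, 28.1 and 25.5 FPKM with vehicle and at 32.3, 117 and 485 FPKM with DS-5272, a log2 fold change of 2.43 (SE 0.89, limma adjusted p = 0.061, and 0.014 with the replicate block). Mdm2, the p53 ubiquitin ligase, was at 27.1, 36.3 and 40.0 FPKM with vehicle and at 42.6, 78.8 and 210 FPKM with DS-5272 (limma adjusted p = 0.073, and 0.015 with the block). The third DS-5272 sample had the highest Cdkn1a and the lowest median of the mitotic genes, but the first sample had the lowest Cdkn1a of its group and lower mitotic genes than the second. Trp53 itself fell by 0.91 on the log2 scale (limma adjusted p = 0.0086).

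Ratios between partner genes were compared within each library, as log2((a + 1)/(b + 1)). The added 1 FPKM weighs on low values, so a difference given below can depart from that of the printed FPKM ratios, as for Ska3 over Ska1. With 3 samples against 3, the smallest p that the exact permutation test can give is 0.1, and after adjustment over the 10 pairs it was 0.125. That smallest value was reached by 8 pairs, in which the groups did not overlap. Cdc20 over Pttg1 showed the largest difference. It was 2.32, 2.16 and 2.46 with vehicle and 0.211, 0.924 and 0.091 with DS-5272, a difference of −2.87 in the log2 ratio (exact permutation p = 0.1). Mad2l1 over its receptor Mad1l1 was 1.13, 0.798 and 0.784 with vehicle and 0.299, 0.489 and 0.134 with DS-5272 (exact permutation p = 0.1).

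Within the chromosomal passenger complex, Birc5 over Incenp was 1.41, 1.46 and 1.37 with vehicle and 0.460, 1.13 and 0.190 with DS-5272 (exact permutation p = 0.1). Between the aurora kinases, Aurkb over Aurka was 0.854, 0.844 and 0.766 with vehicle and 0.382, 0.505 and 0.207 with DS-5272 (exact permutation p = 0.1). The falls of these partners were thus of unequal size in every DS-5272 sample. The differences in log2 ratio for the other pairs at the smallest p were −0.85 for Bub1b over Bub3, −0.53 for Nuf2 over Ndc80, −0.50 for Ccnb2 over Ccnb1 and 0.37 for Spc25 over Spc24. The groups overlapped for Cenpf over Cenpe (difference 0.14, exact permutation p = 0.5) and for Ska3 over Ska1 (difference 0.37, exact permutation p = 0.2). For Cenpf over Cenpe the sign turned to −0.22 with a pseudocount of 0.1.

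**Figure D3:**
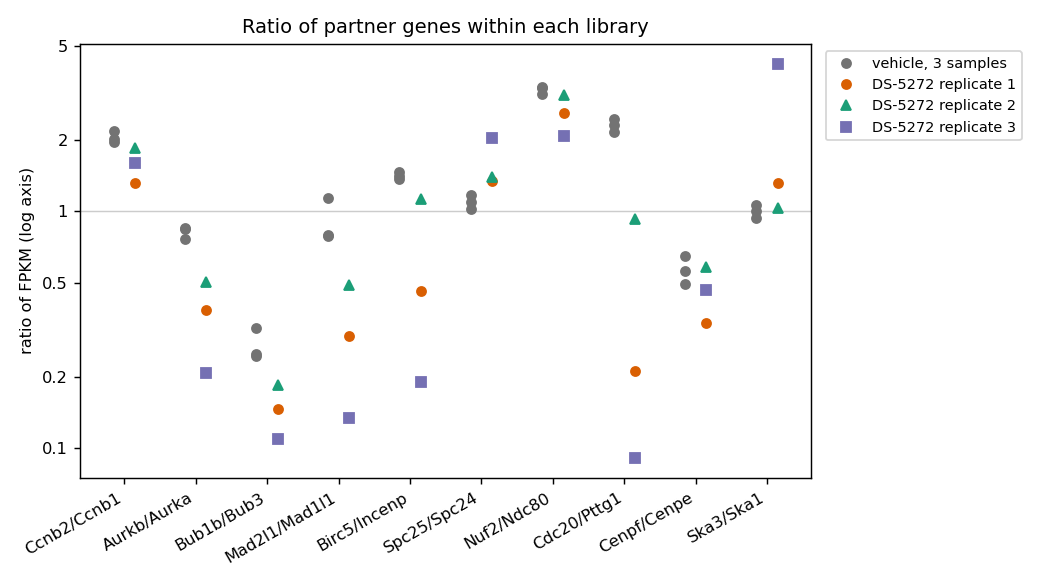
Ratio of the FPKM of partner genes in each library, on a log axis. Grey points are the 3 vehicle samples and coloured symbols the 3 DS-5272 samples, and the groups overlap only for Cenpf/Cenpe and Ska3/Ska1.

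Other genes of mitosis and of DNA replication were taken as 10 further lists, with 120 genes tested of 127. Of these 99 were lower and 1 was higher, with a median log2 fold change of −1.38. Mitotic kinesins, the motors that build and position the spindle, were lower in 12 of 12 genes with a median of −2.06, from −2.55 for Kif22 to −1.47 for Kif18a. Other kinetochore subunits were lower in 12 of 14 genes with a median of −1.53, and the largest fall was that of Spdl1 (−2.14). In that list 1 gene did not pass and 1 was higher. The higher gene was Cenpb, encoding a protein that binds a sequence motif in centromeric repeats. Cenpb rose from 42.0 ± 1.62 to 56.5 ± 2.79 FPKM (SD, n = 3 each), a log2 fold change of 0.42 (SE 0.09, limma adjusted p = 0.011). Cenpb was no longer called higher after rescaling to a common total, after quantile normalization or without vehicle replicate 3.

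Factors that load CENP-A into chromatin were lower in 3 of 3 tested genes (median −1.59), and other checkpoint proteins and protectors of cohesion in 6 of 7 (median −1.37, Trip13 −2.11). Condensin subunits, which compact mitotic chromosomes, were lower in 6 of 8 (median −1.88). Ncapd2 fell most at −2.37, while Smc4 was at −0.13 and did not pass. Regulators of CDK1 and mitotic phosphatases were lower in 6 of 10 (median −1.08, Cks1b −2.13). Cohesin and its regulators were lower in 7 of 12 with a median of −0.70, with Cdca5, which encodes sororin, at −1.63 and Wapl, which encodes the cohesin release factor, at −0.03.

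The list of the anaphase-promoting complex, the ubiquitin ligase that Cdc20 activates, and its partners had the median nearest to 0 of the lists. In it 13 of 18 genes were lower, with a median of −0.46. The ubiquitin-conjugating enzyme Ube2c fell by 2.67 on the log2 scale (SE 0.74, limma adjusted p = 0.025), while the subunit Anapc10 was at −0.02 and did not pass. Of the MuvB complex and its partners MYBL2 and FOXM1, which activate many mitotic genes, 4 genes had an entry of their own. The genes of MYBL2 and FOXM1 were not among them, so all 4 belong to the complex itself. Of these 3 were lower, Lin9 by the most at −1.08, and Lin37 was at 0.20 and did not pass. Genes of replication origins and forks, which act in S phase, were lower in 31 of 32 with a median of −1.55, from −2.40 for Prim1 to 0.32 for Pole, which did not pass (limma adjusted p = 0.405).

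**Figure D4:**
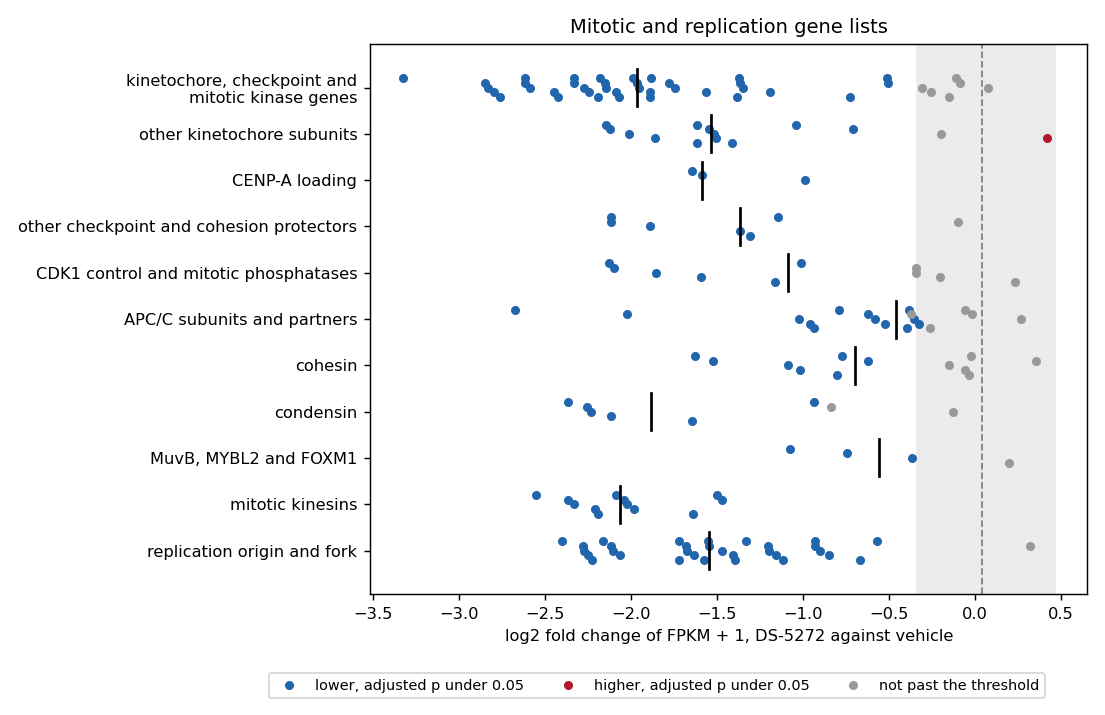
Log2 fold change of FPKM + 1 (DS-5272 against vehicle) of each tested gene in the 43-gene set and in the 10 further lists, with a black bar at each list's median. The grey band spans the quartiles of all genes tested, −0.34 to 0.46 and the dashed line is their median, 0.04. The lowest medians are those of the kinesins, −2.06, and of the 43-gene set, −1.96.

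Library size was estimated from the values of low genes at 35000000 to 43400000 fragments with vehicle and 23400000 to 32400000 with DS-5272. Markers of B and T cells summed to no more than 5.43 FPKM in any sample. For the T cell list the sums of the groups overlapped, but its genes parted. Lck, its most abundant gene, was lower in every DS-5272 sample than in any vehicle sample. Without Lck the T cell sums were 0.553, 0.445 and 0.587 FPKM with vehicle and 3.74, 1.25 and 1.81 FPKM with DS-5272. NK cell markers summed to 0.764, 0.556 and 0.992 FPKM with vehicle and to 3.97, 2.08 and 1.73 FPKM with DS-5272. Of 10 genes listed as markers of the MLL-AF9 leukemia cells 6 had an entry of their own. They summed to 2179 to 2881 FPKM with vehicle and 1096 to 1574 FPKM with DS-5272. Elane made up most of that sum with vehicle, and without it the other 5 summed to 599.9, 566 and 753 FPKM with vehicle and 743, 899.5 and 1364 FPKM with DS-5272. Some marker lists of other or more mature cells moved with the treatment. All 10 genes of a maturing neutrophil list, led by Lcn2, summed to 417, 1857 and 2500 FPKM with vehicle and to 4942, 12576 and 21112 FPKM with DS-5272. Macrophage markers (10 of 10 listed, led by Vcam1) summed to 63.9 to 117 FPKM with vehicle and 188 to 440 FPKM with DS-5272. Erythroid markers (10 of 12 listed, led by Hba-a1) summed to 18.2 to 22.2 FPKM with vehicle and 156, 41.0 and 18.8 FPKM with DS-5272. Rhag was at 0 in all samples. Hba-a1 was at 2.39, 1.05 and 0.598 FPKM with vehicle and at 84.2, 14.7 and 7.07 FPKM with DS-5272. Without Hba-a1 the sums were 15.8, 21.2 and 21.5 FPKM with vehicle and 71.6, 26.3 and 11.8 FPKM with DS-5272. Megakaryocyte markers summed to 2.62 to 2.91 FPKM with vehicle and 4.96 to 8.20 FPKM with DS-5272. The part of these cells and of library size in the falls of the mitotic genes was not tested.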

How the data were processed

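RNA-Seq libraries of MLL-AF9 leukemia cells (3 vehicle, 3 DS-5272 samples, grouped by the treatment in the labels) were prepared by the authors with a strand-specific kit and sequenced from both ends. Reads were trimmed with cutadapt 1.8.1, checked with FastQC, aligned to GRCm38 transcripts with TopHat2 2.1.1 and summarised with Cufflinks 2.2.1, per the submitters' processing notes and the paper's methods. The deposited values are FPKM per gene, already scaled to transcript length and to the mapped fragments of each library, so no count model was used. The table has 26632 lines. Lines sharing a name (435 names) were summed, and 433 lines that join several genes were not split.

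Groups were compared with limma 3.58.1 in R 4.3.3 (two-sided moderated test, with eBayes and a variance trend) on log2(FPKM + 1), over the 11130 genes that averaged 1 FPKM or more, with Benjamini-Hochberg adjustment and a threshold of 0.05. This scale understates the change of low genes. Standard errors and 95% intervals come from the same fit. It takes 1 variance per gene over both groups, although in all 43 genes the samples lay closer together within vehicle. The errors and p-values therefore rest on a pooled spread that describes neither group alone. Partner ratios, as log2((a + 1)/(b + 1)), were compared with a two-sided exact permutation test in Python 3.11.15 with scipy 1.17.1, and printed ratios are of FPKM. Library size was estimated from the smallest steps between FPKM values, and fragments per gene from that size and the longest GENCODE M21 transcript. FPKM values carry no count, so no counting interval is given.

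The 43 genes and all lists were chosen with earlier results of these data known. Every one of the 43 genes could be named. From each further list the rule named the largest fall, the largest rise and the smallest change (1 such gene is not reported here), besides the most abundant gene of marker lists and Cdkn1a, Mdm2 and Trp53. Promoters were printed for the 4 largest falls and the 2 smallest changes, as far as RefSeq (GRCm38.p6) gives bases outside the GENCODE transcript. RefSeq windows matched 38 of the 43 genes.

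Deviations from the group means over 11130 genes had correlations of 0.66, 0.21 and 0.43 between samples numbered 1, 2 and 3 alike. For different numbers the correlations ran from −0.58 to 0.34. The value for number 2 was below the 0.34 of vehicle 2 with DS-5272 3, so number 2 did not stand out from different numbers. No label names what equal numbers share. The reported values come from the fit without pairs, and blocked values are given where they change a call. A fit with the number as a block, other pseudocounts, filters and scalings, a fit without the trend, a minimum fold change and leaving out each sample were run as alternatives.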

Additional observations from a re-analysis of the deposited data

How the results depend on the processing

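No alternative called any of the 43 genes higher, and the 37 lower genes were lower in sign in each of 16 alternatives that tested them (15 for Cenpi and Cenpl). Of these genes 30 also kept their call in each of those. The count of lower genes was 37 with a pseudocount of 0.1, without a filter or without the trend, 35 with a filter at 5 FPKM (which removed Cenpi and Cenpl), 38 with the replicate block, upper-quartile, median-ratio or quantile scaling, and 39 after rescaling to a common total (TPM). In these fits the share of all genes tested that were lower ran from 13.7% without a filter to 32.0% with TPM. That share was 25.3% with upper-quartile, 23.8% with median-ratio and 28.3% with quantile scaling. The count was 34 when a change of 1 or more in absolute log2 value was also asked for. The share of all genes tested that were lower by 1 or more is not given here. Over all 2451 lower genes the median log2 fold change was −0.70, with quartiles of −1.01 and −0.49. Leaving out each sample gave 31 to 37, beside 12.6% to 22.1% of all genes tested lower, the lowest without vehicle replicate 2, where Birc5, Spc25, Bub1, Cdk1, Ccna2 and Mad1l1 lost their call at limma adjusted p-values of 0.0503 to 0.0594. Leaving out any DS-5272 sample lost 0 calls, and the cause was not tested. TPM moved the median of all genes from 0.04 to −0.20, and the median of the 43 genes was then −2.19. The replicate block changed no member's call other than that of Mis12, and in the further lists it made 101 lower genes in place of 99. Signs turned only where no call was made. When each sample was left out, Zwint ranged from −0.23 to 0.037 and Pttg1 from −0.050 to 0.20, and Pttg1 was at −0.18 after TPM and −0.0033 after quantile normalization. The log2 ratio difference of Cenpf over Cenpe was −0.22 with a pseudocount of 0.1. The number of genes higher in those lists, 1 as reported, was 0 after TPM, 0 after quantile normalization and 0 with the minimum fold change, and 0 to 2 when each sample was left out. Depth limits the lowest values most, since the third DS-5272 library was the smallest, at about 23400000 fragments.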
